A study of Mus musculus with 4 samples.

Results

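The 39 genes described here act in G2 and mitosis: they encode proteins of mitotic entry, the spindle, the kinetochore and cytokinesis. They were chosen by name, with earlier results of these data known, and found by gene symbol among the 53465 genes of the deposited expression table. All 39 were listed there once, all had a mean FPKM (fragments per kilobase of exon, scaled between libraries by the authors) of at least 0.1, and all were tested.

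RNA was sequenced from cultured female germline stem cells (FGSCs), a mouse cell line that the labels give as ovarian germ stem cells, with 2 libraries per group. The shNC FGSCs carried a control shRNA and the shNAT10 FGSCs an shRNA against *Nat10*, the acetyltransferase that places N4-acetylcytidine on RNA. According to the study's methods the shRNAs were delivered by lentivirus and infected cells were selected with puromycin or blasticidin S, and the labels give no strain, age or time after infection. The comparison asks which transcripts differ after *Nat10* knockdown.

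In G2, cyclin A2 and the B-type cyclins bind and activate CDK1, whose activity the CDC25 phosphatases release and WEE1 holds back. Active CDK1 with the Polo-like and Aurora kinases starts chromosome condensation and spindle assembly. Kinesins and microtubule-binding proteins build the spindle, kinetochores attach chromosomes to it, and the spindle checkpoint holds back the anaphase-promoting complex (APC/C) until every chromosome is attached. The APC/C with CDC20 then marks securin and cyclin B for destruction, separase cuts cohesin, and midzone proteins guide the cut between the daughter cells. Most genes of this kind are transcribed in G2 and mitosis and kept silent in G1, through the DREAM complex and then MuvB with B-MYB and FOXM1. Those complexes reach promoters through the cell cycle genes homology region (CHR), and NF-Y, which often acts with them, binds CCAAT boxes.

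Because CHR and CCAAT boxes are the sequence features by which such genes are known, they were looked for in the RefSeq promoter windows of the members. Each window holds 250 bases before and 50 after the annotated start on GRCm38.p6. A window was available for 33 members, and those of *Aurkb*, *Ccna2*, *Cdc25c*, *Incenp*, *Kif20a* and *Tpx2* were not analysed here. CHR was searched as TTTGAA or TTCGAA and CCAAT as those 5 letters, each on both strands; matches of the 2 motifs may share bases at their ends. The windows printed below stop at the base before the start and run 5′ to 3′ on the strand of the gene, with every CHR and CCAAT match in capitals. ATTGG and TTCAAA are the matches on the opposite strand. They were chosen to show mitotic entry genes, a motor, an uncalled gene, a window with many matches and a window with none.
Cdk1 (chr10:69352913-69353012, minus strand): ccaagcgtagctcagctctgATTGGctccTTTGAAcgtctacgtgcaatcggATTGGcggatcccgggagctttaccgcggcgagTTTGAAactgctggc
Ccnb1 (chr13:100786487-100786596, minus strand): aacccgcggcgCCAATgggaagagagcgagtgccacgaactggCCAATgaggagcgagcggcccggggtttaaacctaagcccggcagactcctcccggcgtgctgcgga
Ccnb2 (chr9:70421555-70421654, minus strand): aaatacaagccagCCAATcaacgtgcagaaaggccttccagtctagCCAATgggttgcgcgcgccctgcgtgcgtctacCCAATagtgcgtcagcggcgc
Ccnf (chr17:24251410-24251559, minus strand): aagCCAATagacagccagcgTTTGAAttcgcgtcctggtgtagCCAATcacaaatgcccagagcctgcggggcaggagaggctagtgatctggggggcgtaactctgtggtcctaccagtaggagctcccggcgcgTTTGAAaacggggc
Kif11 (chr19:37376322-37376381, plus strand): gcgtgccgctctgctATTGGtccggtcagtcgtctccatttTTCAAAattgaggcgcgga
Cdc20 (chr4:118437344-118437423, minus strand): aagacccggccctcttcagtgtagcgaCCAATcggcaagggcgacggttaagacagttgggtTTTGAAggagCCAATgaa
Top2a (chr11:99024190-99024349, minus strand): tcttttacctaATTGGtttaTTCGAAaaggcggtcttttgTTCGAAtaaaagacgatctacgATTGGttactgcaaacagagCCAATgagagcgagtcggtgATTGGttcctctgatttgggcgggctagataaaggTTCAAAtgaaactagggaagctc
Mad2l1 (chr6:66535161-66535220, plus strand): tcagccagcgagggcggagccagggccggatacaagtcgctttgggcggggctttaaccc

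CHR was found in 26 of the 33 windows (78.8%), and in 19.4% of the 27025 mouse promoter windows of the same length. CCAAT was found in 25 windows (75.8%), against 37.9% of all promoters. Both stood in 23 windows (69.7%), against 7.70% of all. In *Ccnb2* the CHR matches lie further upstream and just after the start, outside the bases printed, while the full windows of *Mad2l1*, *Birc5*, *Nuf2*, *Nusap1* and *Pttg1* held neither set of letters. Of the 36 CHR matches in the members, 25 (69.4%) began between 60 bases before and 50 bases after the start, where 27.5% of the matches in all promoters lay. These are matches of letters, and no binding was measured.

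**Figure D1:**
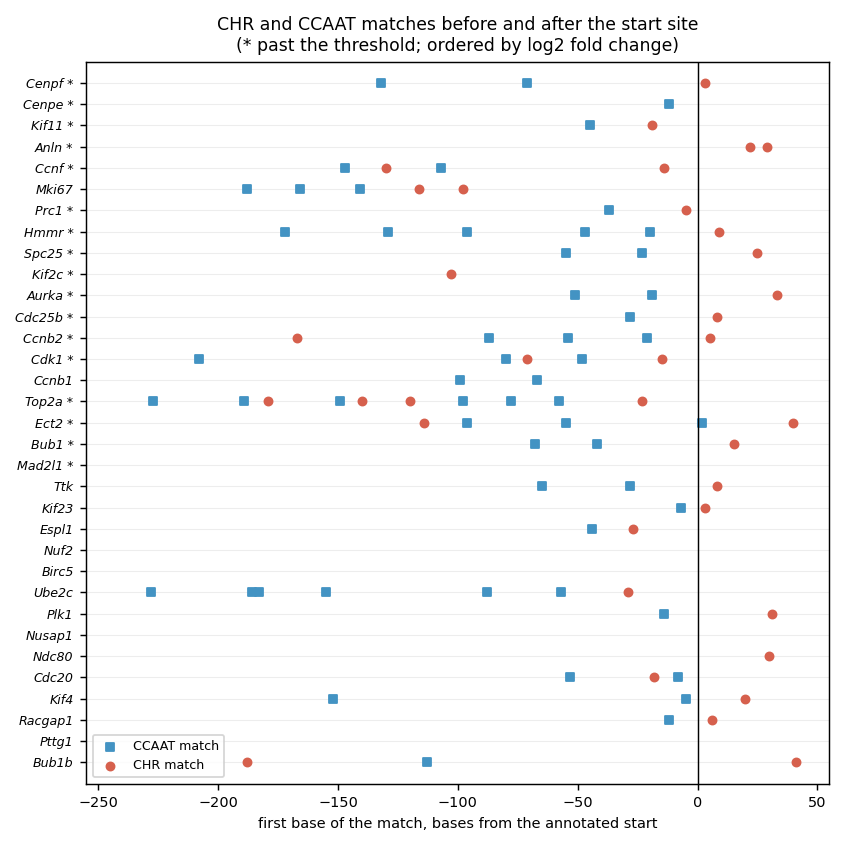
Positions of CCAAT matches (squares) and CHR matches (circles) in the promoter windows of 33 genes, in bases from the annotated start, with genes ordered by log2 fold change and an asterisk on those past the threshold of the comparison. CHR matches gather around the start, with 25 of 36 between 60 bases before and 50 bases after it, and most CCAAT matches lie upstream.

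The libraries held 11057922 to 14902438 recovered fragments on genes. *Gm42418*, *Gm26917* and *CT010467.1*, where rRNA and repeat reads map, took 38.7% and 29.8% of them in the shNC libraries but 18.3% and 20.2% after knockdown. The remaining fragments numbered 9.03 to 11.0 M (mega). Values of single libraries are given below in the order shNC-1 and shNC-2 (the controls) and shNAT10-1 and shNAT10-2 (the knockdown). *Nat10* itself, on the minus strand of chromosome 2, had 7.79 and 5.42 FPKM in the controls against 2.95 and 3.04 in the knockdown (log2 fold change -1.09, standard error (SE) 0.21, limma adjusted p = 0.123). Of 10 germ cell markers, *Kit* alone had a mean FPKM of at least 0.1, and *Dazl*, *Dppa3*, *Pou5f1*, *Prdm14* and *Tfap2c* were at 0 in all 4 libraries. All 6 pan-leukocyte markers were present, with a summed level of 368 to 410 FPKM in shNC and 313 to 325 FPKM in shNAT10. Of 10 mast cell markers 5 had a mean FPKM of at least 0.1, with summed levels of 298 to 311 FPKM in shNC and 309 to 316 FPKM in shNAT10, led by *Cpa3*, while *Fcer1a* and *Tpsb2* were at 0. The 6 fibroblast markers summed to 44.8 to 51.7 FPKM in shNC and 51.4 to 60.7 FPKM in shNAT10. Oocyte, granulosa and theca cell markers each summed to under 1 FPKM in every library. Among 7 meiosis genes *Stra8* and *Dmc1* were at 0, and the 7 summed to 1.53 to 2.05 FPKM in shNC and 2.27 to 2.82 FPKM in shNAT10. Within these lists *Kit* (log2 fold change -0.60), *Cd53* (-0.58), *Laptm5* (-0.64), *Gata2* (-0.33) and *Mitf* (-0.39) were downregulated in the comparison below, and *Pdgfra* (0.83), *Col3a1* (0.98) and *Ms4a2* (2.12) were upregulated. Most transcripts of this germ cell list were thus at or near 0. The study examined the cells by RT-PCR for the germline markers Oct4, Ddx4, Fragilis and Blimp1 and by immunofluorescence, assays that were not analysed here. In the RNA-seq the gene of Oct4, *Pou5f1*, was among those at 0, *Ddx4* had 2 fragments over the 4 libraries, and *Prdm1*, the gene of Blimp1, had 0.0702 to 0.0916 FPKM. *Ifitm3*, the gene of Fragilis and also active in many other cell types, is not in the list and was added once its values were known, with 9.29 and 22.2 FPKM in the controls against 27.1 and 33.6 in the knockdown. The part of other cell types in the results below was not tested. In bulk RNA, fewer cells of a type and less RNA per cell cannot be told apart, and this holds for the number of cells in mitosis too. By flow cytometry the study reports an S-phase arrest and a smaller G2/M share in shNAT10 FGSCs. Its western blots showed more cyclin B1, cyclin D1 and CDK4 protein and less cyclin A2 protein. Those assays were not analysed here, and their relation to the RNA levels below was not tested.

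Of the 39 G2 and mitosis genes, 19 were upregulated in shNAT10 FGSCs, none (0 of 39, by limma or limma-voom) was downregulated and 20 did not pass the threshold. The threshold, a change of more than 1.2-fold with p at or under 0.05, took its limits from a legend of the study that does not say whether p was adjusted. It was applied here to the p before adjustment of a limma test on log2(FPKM + 0.1). At this threshold 8.41% of the 20116 genes tested were higher and 7.83% lower, and 11.1% of protein-coding genes at a mean FPKM of 1 or more were higher. The log2 fold change was above 0 in 38 of the 39, *Bub1b* being the exception, and in 50.5% of all genes tested. For 28 members it stayed above 0 whichever library was omitted. The median log2 fold change was 0.28, against 0.01 over all genes tested. No member (0 of 39) reached an adjusted p under 0.05, which 0.437% of all genes did, although *Kif11* did so when only genes at a mean FPKM of 1 or more were tested. The lowest adjusted p among members was 0.0842, for *Kif11*. With limma-voom on the recovered fragments, 11 members had an adjusted p under 0.05, all higher, where 4.23% of all genes were higher and 3.65% lower by the same rule. When single libraries were omitted, the number upregulated was 21 without shNC-1, 14 without shNC-2, 6 without shNAT10-1 and 6 without shNAT10-2, and none was downregulated in any of these fits. The share of all genes upregulated in the same 4 fits was 8.62%, 8.61%, 5.51% and 5.86%.

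Both shNAT10 libraries lay above both shNC libraries for 23 members, an order found for 23.9% of all genes tested. The opposite order, found for 24.1% of all genes, was seen for none (0 of 39), and the groups overlapped for the other 16. By depth, the members had between 556 and 12006 fragments over the 4 libraries, with a median of 3075. The smallest number in any library was 105. Mean FPKM ran from 2.06 for *Nuf2* to 37.4 for *Ccna2*.

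**Figure D2:**
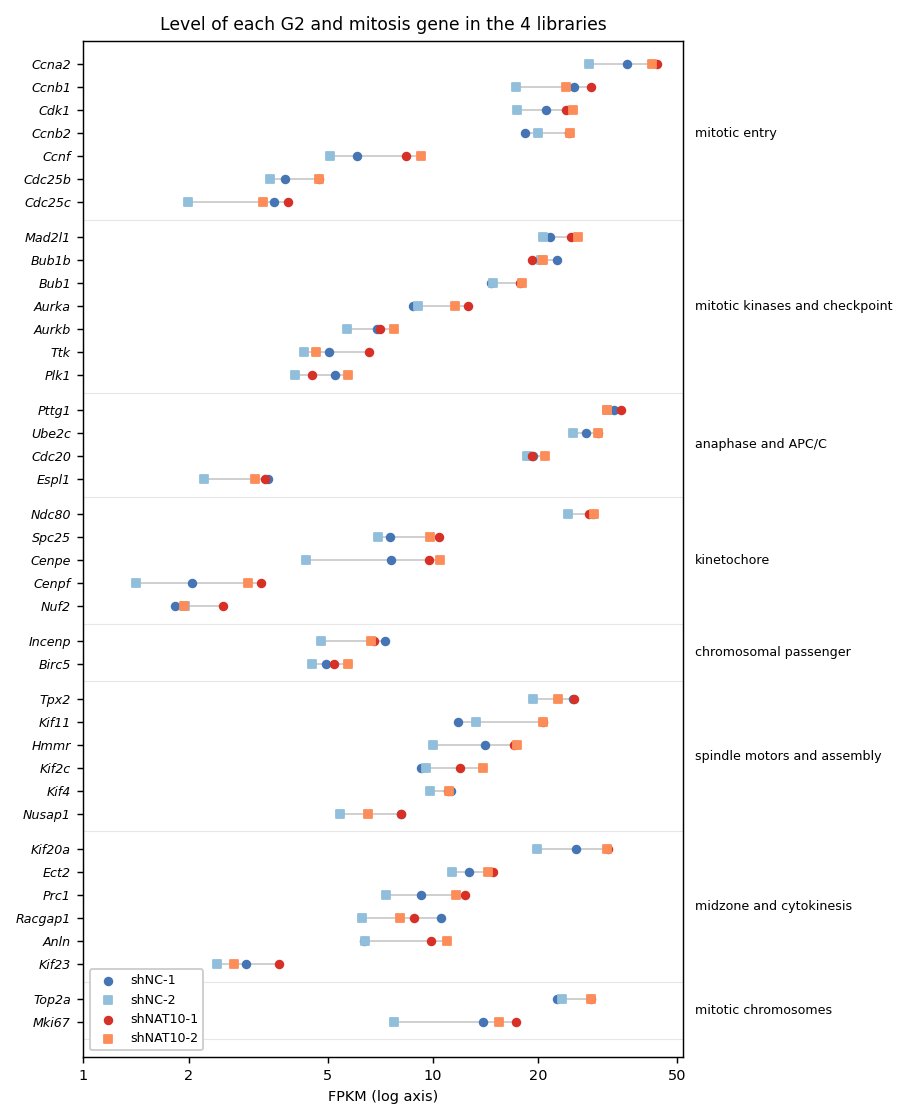
FPKM (log axis) of the 39 genes in each of the 4 libraries, grouped by role, with shNC libraries in blue and shNAT10 libraries in red and orange and a line joining the lowest and highest library. The lowest point was shNC-2 for 30 of the 39 genes, and both shNAT10 points lay right of both shNC points for 23.

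The control libraries themselves differed in these genes. shNC-2 lay below shNC-1 in 31 of the 39 members, and the median difference of the 39 (shNC-2 minus shNC-1, log2 scale) was -0.24, whereas that over protein-coding genes at a mean FPKM of 1 or more was -0.004. The members' deviation from their own mean over the 4 libraries had a median of -0.03 and -0.26 in the controls (shNC-1, then shNC-2) and of 0.18 and 0.16 in the knockdown (shNAT10-1, then shNAT10-2). Summed over the members, the level was 525 and 449 FPKM in the controls against 603 and 594 in the knockdown. The shNAT10 libraries were closer to each other, with a median absolute difference of 0.10 per member, than the shNC libraries, with 0.24. The same order held over all genes tested (0.20 and 0.27) and over protein-coding genes at a mean FPKM of 1 or more (0.12 and 0.18). The median log2 fold change of the members was 0.22 without shNC-2 and 0.42 without shNC-1. Of the 20 genes that did not pass the threshold, 19 were lower in shNC-2 than in shNC-1, as were 12 of the 19 that did. Over all 20116 genes tested, 9958 were lower in shNC-2. A wide gap between the shNC libraries itself makes a pass less likely, so these counts are tied to the call.

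**Figure D3:**
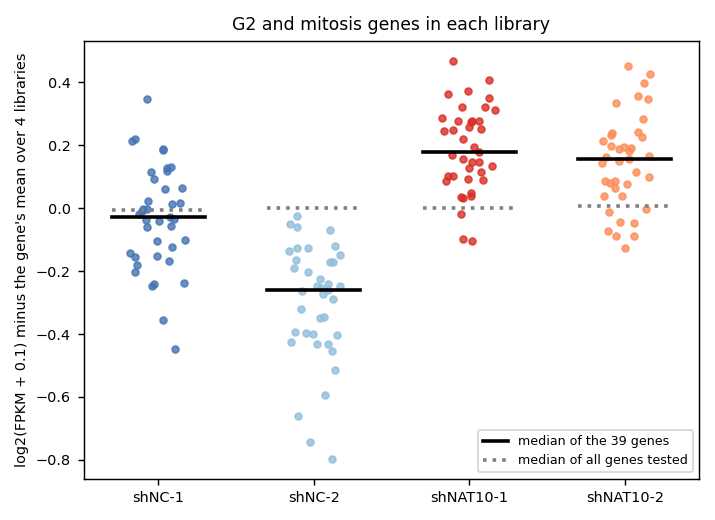
Log2(FPKM + 0.1) of each of the 39 genes in each library, less that gene's mean over the 4 libraries, with the median of the 39 genes (solid line) and of all genes tested (dotted line). The medians of the 39 genes were -0.03 and -0.26 for shNC but 0.18 and 0.16 for shNAT10, and those of all genes were near 0 in each library.

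Mitotic entry genes were upregulated in 5 of 7 cases, with a median log2 fold change of 0.39. *Cdk1*, the kinase that drives mitosis, is a minus-strand gene at chr10:69335146-69352938 (GRCm38, GENCODE M21). It had 21.1 and 17.3 FPKM in the controls against 24.0 and 25.1 in the knockdown, so the groups did not overlap (log2 fold change 0.36, SE 0.12, limma adjusted p = 0.272). Without shNC-2 its log2 fold change was 0.22 and it no longer passed. *Ccnb1* encodes cyclin B1, the main partner of CDK1 at mitotic entry. It had 25.4 and 17.3 FPKM in the controls against 28.2 and 24.0 in the knockdown, and shNAT10-2 lay below shNC-1. Its log2 fold change of 0.31 did not pass (SE 0.21, limma adjusted p = 0.546, 95% interval -0.25 to 0.87), and it was 0.04 without shNC-2 and 0.59 without shNC-1. It passed by limma-voom (adjusted p = 0.183). The *Ccnb1* pseudogenes that match it closely had at most 0.0662 FPKM.

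*Ccnb2*, the other B-type cyclin of dividing cells, had 18.4 and 19.9 FPKM in the controls against 24.6 in each knockdown library. Here the shNC libraries lay close together, and the log2 fold change was 0.36 (SE 0.09, limma adjusted p = 0.183). *Ccna2* encodes cyclin A2, which works in S phase and G2, and had the highest level of the members. It had 35.8 and 27.9 FPKM in the controls against 43.7 and 42.2 in the knockdown (log2 fold change 0.44, SE 0.14, limma adjusted p = 0.247). Its 2 shNC libraries differed by 0.36, nearly as much as the groups, and the log2 fold change without shNC-2 was 0.26. An opposite-strand gene, *Exosc9*, shares 12.5% of its exon bases.

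The largest rise in this class was that of *Ccnf*, which encodes cyclin F, the substrate receptor of an SCF ubiquitin ligase. It had 6.04 and 5.06 FPKM in the controls against 8.36 and 9.22 in the knockdown, with a clear gap between the groups (log2 fold change 0.66, SE 0.14, limma adjusted p = 0.142). The CDC25 phosphatases remove the inhibitory phosphates from CDK1. *Cdc25b* had 3.77 and 3.41 FPKM in the controls against 4.72 and 4.71 in the knockdown (log2 fold change 0.39, SE 0.13, limma adjusted p = 0.254), and did not pass without shNC-2. *Cdc25c* had 3.51 and 2.00 FPKM in the controls against 3.86 and 3.26 in the knockdown. The shNC range of *Cdc25c* took in the lower shNAT10 library, and its log2 fold change of 0.41 did not pass (limma adjusted p = 0.566). It was 0.015 without shNC-2 and 0.80, past the threshold, without shNC-1.

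Among the mitotic kinases and checkpoint genes, 3 of 7 were upregulated, with a median log2 fold change of 0.24. *Aurka*, the Aurora kinase of centrosomes and spindle poles, had 8.75 and 9.05 FPKM in the controls against 12.6 and 11.5 in the knockdown (log2 fold change 0.43, SE 0.10, limma adjusted p = 0.169). It passed in all 4 fits that left out a library. *Bub1*, a kinase at kinetochores, had 14.7 and 14.8 FPKM in the controls against 17.7 and 17.9 in the knockdown. *Mad2l1*, which encodes MAD2, the protein that binds and holds back CDC20, had 21.6 and 20.7 FPKM in the controls against 24.9 and 26.0 in the knockdown. Both had small rises with little spread within the groups, and both lay just past the fold threshold, with log2 fold changes of 0.27 (SE 0.08, limma adjusted p = 0.241) and 0.26 (SE 0.09, limma adjusted p = 0.249).

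The other checkpoint partner, *Bub1b*, encodes BUBR1, which joins MAD2 and BUB3 in the mitotic checkpoint complex. It had 22.6 and 20.3 FPKM in the controls against 19.2 and 20.6 in the knockdown, and was the only member with a log2 fold change below 0 (-0.11, limma adjusted p = 0.633, 95% interval -0.38 to 0.16). Its groups overlapped. *Plk1*, the Polo-like kinase, had 5.23 and 4.02 FPKM in the controls against 4.49 and 5.70 in the knockdown. *Plk1* had the fewest fragments of the members, 556, and its log2 fold change was 0.14 (limma adjusted p = 0.768). *Ttk*, the MPS1 kinase that starts checkpoint signalling, had a log2 fold change of 0.24 (limma adjusted p = 0.604) with overlapping groups. *Aurkb*, the kinase of the chromosomal passenger complex, had one of 0.24 (limma adjusted p = 0.503) with shNAT10 libraries above the shNC libraries. For *Aurkb* it was 0.095 without shNC-2 and 0.38 without shNC-1.

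None of the 4 members grouped under anaphase and the APC/C passed the threshold (0 of 4; other APC/C genes are counted below), and the median log2 fold change of these genes was 0.13. *Cdc20*, the APC/C activator of mitosis, had 19.3 and 18.5 FPKM in the controls against 19.2 and 20.8 in the knockdown, a log2 fold change of 0.08 (limma adjusted p = 0.697, 95% interval -0.16 to 0.32). The promoter of *Cdc20* holds a CHR and 2 CCAAT matches, as printed above. *Pttg1*, which encodes securin, the inhibitor of separase, had 32.9 and 31.5 FPKM in the controls against 34.6 and 31.5 in the knockdown (log2 fold change 0.04, limma adjusted p = 0.874, 95% interval -0.20 to 0.28). For *Cdc20* and *Pttg1* the groups overlapped. *Ube2c*, the ubiquitin-conjugating enzyme of the APC/C, had 27.3 and 25.1 FPKM in the controls against 29.6 in each knockdown library. The *Ube2c* groups did not overlap, but the log2 fold change of 0.18 was under the fold threshold (limma adjusted p = 0.410). *Espl1*, which encodes separase, had a log2 fold change of 0.22 (limma adjusted p = 0.679; 0.51 and past the threshold without shNC-1), and shNC-2, at 2.21 FPKM, was the low library among values of 3.10 to 3.38 FPKM.

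Of the kinetochore genes 3 of 5 were upregulated, with a median log2 fold change of 0.47, and they included the 2 largest changes of all members. *Cenpf*, a large protein of the outer kinetochore and nuclear envelope, is a minus-strand gene at chr1:189640606-189688086. It had 2.05 and 1.41 FPKM in the controls against 3.21 and 2.95 in the knockdown (log2 fold change 0.82, SE 0.22, limma adjusted p = 0.210). *Cenpe*, the kinesin that moves chromosomes to the spindle equator, is a plus-strand gene at chr3:135212537-135273611. It had 7.60 and 4.34 FPKM in the controls against 9.72 and 10.4 in the knockdown (log2 fold change 0.80, SE 0.28, limma adjusted p = 0.274). For both genes shNC-2 was the lowest library, and without it the log2 fold changes were 0.56 for *Cenpf* and 0.40 for *Cenpe*.

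The NDC80 complex is the part of the kinetochore that grips microtubules, and its subunits did not share a call. *Spc25* had 7.53 and 6.98 FPKM in the controls against 10.4 and 9.80 in the knockdown (log2 fold change 0.47, SE 0.11, limma adjusted p = 0.157). *Ndc80* had 28.6 and 24.3 FPKM in the controls against 28.0 and 28.9 in the knockdown, a log2 fold change of 0.11 that did not pass (adjusted p = 0.667). *Nuf2*, the member with the lowest level, had 1.83 and 1.95 FPKM in the controls against 2.51 and 1.93 in the knockdown (log2 fold change 0.21, limma adjusted p = 0.623). The log2 fold change of *Nuf2* was 0.033 without shNAT10-1 and 0.39 without shNAT10-2. For *Spc25* the groups stood apart, while for *Ndc80* and *Nuf2* they overlapped. The differences between these subunits were not tested.

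Neither *Birc5* nor *Incenp*, the 2 members grouped as chromosomal passenger subunits beside the kinase *Aurkb*, passed the threshold (0 of 2). *Cdca8*, which encodes the subunit borealin and is no member, was looked up after its values were seen and passed (log2 fold change 0.35, limma adjusted p = 0.288), but not with any library omitted. *Birc5*, which encodes survivin, had 4.96 and 4.51 FPKM in the controls against 5.22 and 5.71 in the knockdown, with no overlap and a log2 fold change of 0.21 (limma adjusted p = 0.503). *Incenp*, the scaffold of the complex, had 7.30 and 4.77 FPKM in the controls against 6.76 and 6.65 in the knockdown. Both shNAT10 values of *Incenp* lay between the shNC values (log2 fold change 0.18, limma adjusted p = 0.726). Without shNC-1 its log2 fold change was 0.48 and passed.

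**Figure D4:**
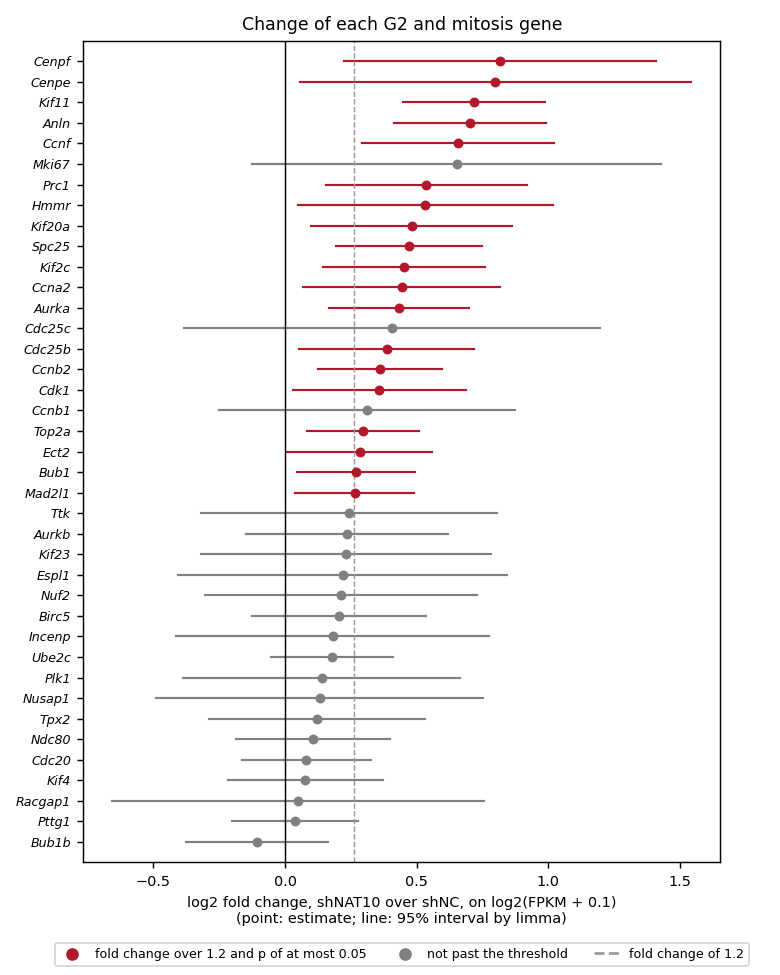
Log2 fold change of shNAT10 over shNC on the log2(FPKM + 0.1) scale for the 39 genes, in order of size, with 95% intervals from limma, in red for the 19 genes past the threshold and in grey for the other 20. All points but that of *Bub1b* (-0.11) lie right of 0, and the intervals of the 20 grey genes cross 0.

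Spindle motors and assembly factors were upregulated in 3 of 6 cases, with a median log2 fold change of 0.29. *Kif11* encodes the plus-end motor Eg5, which pushes the spindle poles apart, and is a plus-strand gene at chr19:37376403-37421859. It had 11.7 and 13.3 FPKM in the controls against 20.7 and 20.6 in the knockdown, the clearest separation among the members (log2 fold change 0.72, SE 0.10, limma adjusted p = 0.0842). In contrast to most members, *Kif11* was lowest in shNC-1, and its log2 fold change stayed between 0.63 and 0.81 whichever library was omitted. *Kif2c*, the MCAK depolymerase that frees wrongly attached microtubules, had 9.25 and 9.54 FPKM in the controls against 11.9 and 13.9 in the knockdown (log2 fold change 0.45, SE 0.12, limma adjusted p = 0.194). *Hmmr*, a spindle-pole microtubule protein and hyaluronan receptor, had 14.1 and 9.97 FPKM in the controls against 17.0 and 17.4 in the knockdown (log2 fold change 0.53, SE 0.18, limma adjusted p = 0.270). Without shNC-2 the log2 fold change of *Hmmr* was 0.29.

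The other 3 genes of this class had log2 fold changes near 0.1 and overlapping groups. *Kif4*, a chromosome-bound kinesin, had 11.3 and 9.81 FPKM in the controls against 11.1 in each knockdown library (log2 fold change 0.08, limma adjusted p = 0.773), and shares 15.1% of its exon bases with the opposite-strand gene *Pdzd11*. *Tpx2*, the activator of Aurora A on the spindle, had a log2 fold change of 0.12 (limma adjusted p = 0.736), and *Nusap1*, which bundles spindle microtubules, one of 0.13 (adjusted p = 0.819).

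Midzone and cytokinesis genes were upregulated in 4 of 6 cases, with a median log2 fold change of 0.38. *Anln* encodes anillin, the scaffold of the contractile ring, and is a minus-strand gene at chr9:22332012-22389188. It had 6.33 and 6.38 FPKM in the controls against 9.87 and 11.0 in the knockdown (log2 fold change 0.70, SE 0.11, limma adjusted p = 0.0933). The shNC values of *Anln* were nearly equal, and its log2 fold change stayed between 0.63 and 0.78 whichever library was omitted. *Prc1*, which cross-links the antiparallel microtubules of the midzone, had 9.24 and 7.34 FPKM in the controls against 12.4 and 11.7 in the knockdown (log2 fold change 0.54, SE 0.14, limma adjusted p = 0.206). *Kif20a*, the motor that carries the passenger complex to the midzone, had 25.7 and 19.9 FPKM in the controls against 31.8 and 31.4 in the knockdown (log2 fold change 0.48, SE 0.14, limma adjusted p = 0.231). *Kif20a* shares 29.3% of its exon bases with *Cdc23* on the opposite strand, which was also upregulated, and its log2 fold change was 0.30 without shNC-2.

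*Ect2*, the exchange factor that switches on RhoA at the cell equator, had 12.7 and 11.3 FPKM in the controls against 14.9 and 14.3 in the knockdown. Its log2 fold change of 0.28 was the one nearest to the p threshold (SE 0.10, limma adjusted p = 0.290). *Racgap1* and *Kif23* encode the centralspindlin complex that brings ECT2 to the midzone, and neither passed. *Racgap1* had 10.6 and 6.27 FPKM in the controls against 8.85 and 8.03 in the knockdown, so that its shNC libraries enclosed both shNAT10 libraries (log2 fold change 0.05, limma adjusted p = 0.948, 95% interval -0.66 to 0.75). *Kif23* had 2.91 and 2.41 FPKM in the controls against 3.62 and 2.70 in the knockdown (log2 fold change 0.23, limma adjusted p = 0.615). Its log2 fold change was 0.027 without shNAT10-1 and 0.44 without shNAT10-2.

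The last pair of genes acts on mitotic chromosomes themselves. *Top2a*, the topoisomerase that untangles sister chromatids, had the most fragments of the members, 12006, and is a minus-strand gene at chr11:98992943-99024189. It had 22.7 and 23.4 FPKM in the controls against 28.2 and 28.3 in the knockdown, a modest difference with little spread (log2 fold change 0.30, SE 0.08, limma adjusted p = 0.207), and passed in all 4 fits that left out a library but not without the mean-variance trend. *Mki67* encodes Ki-67, the coat of mitotic chromosomes that is widely used to stain dividing cells. It had 13.9 and 7.73 FPKM in the controls against 17.3 and 15.4 in the knockdown. The groups did not overlap, but the shNC libraries differed by 0.84 on the log2 scale, more than the log2 fold change of 0.65 (SE 0.29, limma adjusted p = 0.369, 95% interval -0.12 to 1.43). The log2 fold change was 0.23 without shNC-2 and 1.07, past the threshold, without shNC-1. By limma-voom the adjusted p of *Mki67* was 0.00479.

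The other 10 members with an adjusted p under 0.05 by limma-voom were *Kif11*, *Anln*, *Cenpf*, *Cenpe*, *Ccnf*, *Prc1*, *Kif20a*, *Hmmr*, *Ccna2* and *Kif2c*. Only *Anln*, *Aurka*, *Kif11* and *Top2a* passed the threshold of the limma test in all 4 fits that left out a library. All 19 upregulated genes stayed above 0 in those fits. That had to follow, because both shNAT10 libraries lay above both shNC libraries for each of them. *Ccna2*, *Ccnb2*, *Ccnf*, *Cdc25b*, *Cdk1*, *Cenpe*, *Cenpf*, *Ect2*, *Hmmr*, *Kif20a*, *Mad2l1* and *Prc1* did not pass without shNAT10-1, nor without shNAT10-2. *Spc25* was also lost without shNAT10-1, *Bub1* without shNAT10-2 or shNC-1 and *Kif2c* without either shNC library, and *Cdc25b*, *Cdk1*, *Ect2* and *Mad2l1* were lost without shNC-2 as well. Across the 39 members, exon length and log2 fold change had a Spearman's rho of 0.40, while across 9714 protein-coding genes at a mean FPKM of 1 or more it was 0.003. Genes share their libraries and are not independent replicates, so these correlations are descriptions. Of the 17 upregulated members with a promoter window 15 held a CHR match, as did 11 of the 16 others.

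Genes that surround the members in the same pathways were followed as lists. Among 15 regulators of the DREAM, MuvB and FOXM1 system, which sets the timing of G2 and mitosis transcription, 4 were upregulated and 1 was downregulated, with a median log2 fold change of 0.07. *Mybl2*, which encodes B-MYB, rose from 4.74 and 3.51 to 7.36 and 7.45 FPKM (log2 fold change 0.84, limma adjusted p = 0.142), and did not pass when either shNAT10 library was omitted. *Rbl1*, the p107 pocket protein, rose by a log2 fold change of 0.53 and passed in 1 of the 4 fits that left out a library, and *Lin52*, a MuvB core subunit, changed by -0.74 (-0.47 and not past the threshold without shNC-1). *Foxm1*, a gene added here once its values were known, had 3.27 and 1.67 FPKM in the controls against 3.13 and 3.0 in the knockdown, which overlapped (log2 fold change 0.37, limma adjusted p = 0.614). Its shNC libraries differed (shNC-2 minus shNC-1, log2 scale) by -0.93, larger in size than the log2 fold change.

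Of 13 other genes that control CDK1 or the opposing phosphatase PP2A, among them the activators *Cdc25a* and *Bora*, 3 were upregulated and none (0 of 13) was downregulated, with a median of 0.16. They were *Mastl*, the Greatwall kinase that inhibits PP2A in mitosis (log2 fold change 0.56), *Wee1*, the kinase that inhibits CDK1 (0.52), and the checkpoint kinase *Chek2* (0.39). All 3 lost the call without the trend and with single libraries omitted, *Chek2* also with libraries scaled to the same protein-coding total and under the replicate block, and *Mastl* was at 0.35 without shNAT10-1. Of 17 genes for APC/C core subunits, their activator and inhibitor, 2 were upregulated and 1 was downregulated, with a median of 0.03. The 11.8% upregulated lay near the 11.1% of protein-coding genes at a mean FPKM of 1 or more. *Fbxo5*, which encodes the APC/C inhibitor EMI1, rose from 12.4 and 10.1 to 19.1 and 17.2 FPKM (log2 fold change 0.69, limma adjusted p = 0.135), and did not pass when either shNAT10 library was omitted. The core subunits *Cdc23* (0.32) and *Anapc2* (-0.43) passed in opposite directions. Neither passed with any library omitted, without the trend or with libraries scaled to the same protein-coding total, and *Anapc2* was at -0.27 without shNC-1.

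Structural genes of mitosis beyond the members were counted next. Of 33 other kinetochore and checkpoint genes, 10 were upregulated and none (0 of 33) was downregulated, with a median of 0.23, led by *Knl1*, the platform for BUB1 and BUBR1 (log2 fold change 0.97), *Cenph* of the inner kinetochore (0.64) and the cohesin protector *Sgo2a* (0.62, and 0.39 without shNC-2). *Knl1* and *Sgo2a* did not pass when either shNAT10 library was omitted, and *Cenph* passed in 1 of the 4 fits that left out a library. Condensin and cohesin genes were upregulated in 6 of 17 cases with none (0 of 17) downregulated and a median of 0.25. *Smc4* and *Smc2*, the ATPases of condensin, had log2 fold changes of 0.78 and 0.58, and *Pds5b*, a cohesin regulator, 0.51. Without shNAT10-2 neither *Smc4* nor *Smc2* passed, and *Smc4* was also lost without shNAT10-1. Of 30 other spindle and cytokinesis genes, 13 were upregulated and 1 was downregulated, with a median of 0.32. *Pbk*, a mitotic kinase, rose from 3.99 and 3.67 to 8.10 and 7.94 FPKM (log2 fold change 1.05, limma adjusted p = 0.0603), *Kif20b* had a log2 fold change of 0.83 that did not pass when either shNAT10 library was omitted, and *Troap* fell from 2.29 and 2.27 to 1.16 and 1.15 FPKM (-0.92, limma adjusted p = 0.120).

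The 2 lists of earlier phases were compared to place the members in the cycle. Of 40 genes of S phase and DNA replication, 18 were upregulated and none (0 of 40) was downregulated, with a median log2 fold change of 0.37. *Tk1*, thymidine kinase, had a log2 fold change of 0.91, *Rrm1*, the large subunit of ribonucleotide reductase, 0.84, and *Tyms*, thymidylate synthase, 0.66. Of 15 tested genes among 16 G1 cyclins, kinases and brakes, 7 were upregulated and none (0 of 15) was downregulated, with a median of 0.41, and *Ccne2* and *Rb1* had log2 fold changes of 0.63 and 0.58. *Ccne2* passed in 1 of the 4 fits that left out a library. *Rb1* was at 0.33 without shNC-1, and its call was lost under most of the alternatives tried. *Ccnd1*, cyclin D1, rose by 0.97 and was the only gene of these lists with an adjusted p under 0.05 (0.0489 by limma). Shares upregulated of this size were thus also seen among genes of earlier phases, and differences between the lists were not tested.

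**Figure D5:**
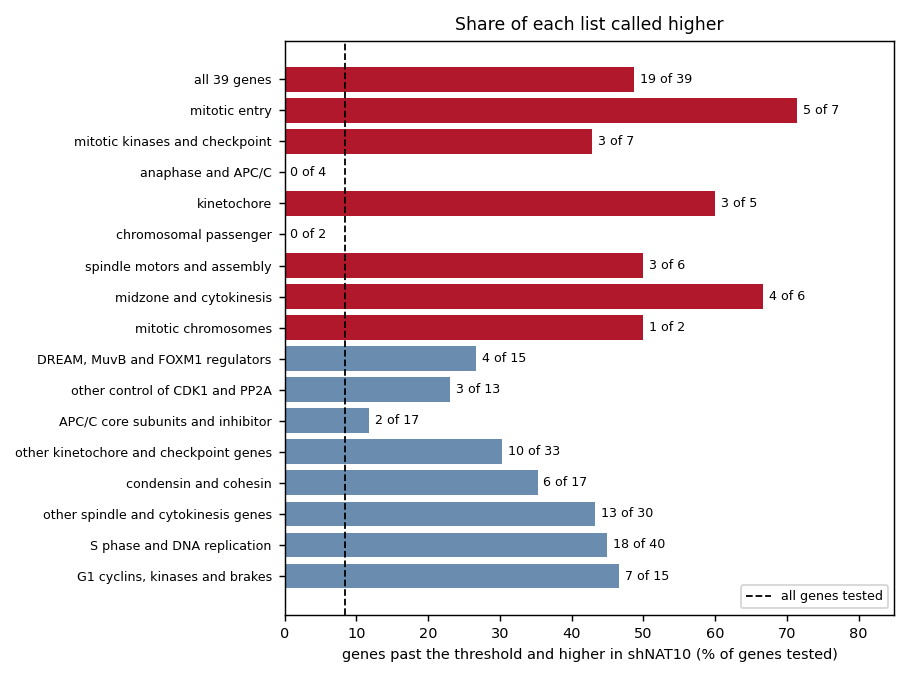
Percentage of the tested genes of each list that passed the threshold and were higher in shNAT10, with the counts at the bars, for the 39 genes and their 8 roles (red) and for 8 other cell cycle lists (blue). The dashed line marks the 8.41% of all genes tested; the 39 genes stand at 19 of 39, members of anaphase and the APC/C at 0 of 4, and S phase genes at 18 of 40.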

How the data were processed

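RNA-seq of 2 shNC and 2 shNAT10 libraries was analysed, grouped by the sample titles. The authors name, in the study's methods, an rRNA depletion kit, paired-end reads, HISAT2 for alignment and DESeq2 for testing, whereas per the labels mRNA was isolated with an Oligotex kit before a directional library kit, so the records differ. The submitters' processing notes name mm10 and cutadapt. The counting program, annotation and use of strand are not given in the sources used here, so reads of genes that overlap on opposite strands may be shared. The authors deposited FPKM for 53465 genes. A second deposited table holds the authors' own fold changes, p-values and the same FPKM for part of the genes, and was not used.

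Values were put on the log2(FPKM + 0.1) scale, and 20116 genes whose mean FPKM reached 0.1 were tested two-sided by limma 3.58.1 (lmFit, then eBayes with a mean-variance trend; R 4.3.3), adjusted by Benjamini-Hochberg over all of them. Fold changes on this scale understate those of low genes. The limits of the threshold follow a legend of the study, with p taken here before adjustment. A legend of the study calls the replicates biological, but the sources used here do not say whether they were separate cultures or infections; where they were not, p-values measure spread that may be technical. An exact permutation test of 2 against 2 libraries cannot give a p under 0.333.

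Fragments were recovered as whole numbers from FPKM and GENCODE M21 exon lengths (53360 genes matched). Of values under 50 fragments, 95.9% to 96.5% per library were within 0.02 of a whole number. The library sizes implied by the FPKM (11.7, 11.9, 12.6 and 15.3 M for shNC-1, shNC-2, shNAT10-1 and shNAT10-2) differed from the recovered totals on genes (14.9, 13.0, 11.1 and 13.8 M), so the authors' FPKM were not scaled to these totals. PCR copies are not told apart. Close copies of members were searched with BLAST 2.17.0 (at least 95% identity over 300 bases). Python 3.11.15, numpy 2.4.6, pandas 2.3.3, scipy 1.17.1 and matplotlib 3.10.9 were used for the rest.

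The members and lists were chosen with earlier results of these data known. Full values are given for *Cdk1*, *Ccnb1*, *Ccnb2*, *Ccna2*, every member past the threshold and the 5 members with the largest and the 5 with the smallest log2 fold change, and in each list the 3 genes with the largest change among those past the threshold with a mean FPKM of at least 1 are named. Values of further members were added after they were seen. Alternatives were other pseudocounts, filters and scalings, limma without trend, the replicate number as a term, each library left out (the lone library of its group is then assumed to vary like the other group), and limma-voom on the recovered fragments.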

Additional observations from a re-analysis of the deposited data

How the results depend on the processing

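The threshold count of members rests on the variance model and on single libraries. The members' median log2 fold change was 0.28 with all libraries, 0.29 without shNAT10-1 and 0.34 without shNAT10-2. With a shNAT10 library left out, the spread within groups came from the shNC libraries alone. Of 39 members, the number upregulated was 19 with quantile normalization, median-ratio rescaling, no filter, a filter at a mean FPKM of 1, or a pseudocount of 0.01, 17 with a pseudocount of 1, 14 with the libraries scaled to the same nuclear protein-coding total, 6 without the trend and 21 by limma-voom. The share of all genes upregulated was 7.91%, 7.64% and 10.1% in the last 3 of these fits, 7.89% under the replicate block, and 6.94% (no filter) to 10.9% (mean FPKM of 1) in the others, against 8.41%. With each library left out it ranged from 6 to 21, the median log2 fold change of the members from 0.22 to 0.42, and the count of all genes past the threshold from 2007 to 3393, against 3267 with all libraries. The members lost were *Bub1* and *Mad2l1* with a pseudocount of 1, *Cdc25b*, *Cdk1*, *Ect2*, *Hmmr* and *Mad2l1* with the same total, and all but *Anln*, *Aurka*, *Ccnf*, *Cenpf*, *Kif11* and *Spc25* without the trend. *Ccnb1* and *Mki67* were gained by limma-voom, and *Cdc25c*, *Espl1*, *Incenp* and *Mki67* without shNC-1. No member (0 of 39) was downregulated under any alternative. Genes with an adjusted p under 0.05 numbered 88, but 0 with either other pseudocount, without a filter, without the trend, under the replicate block and with any library left out, 296 with a mean FPKM of at least 1 (the member *Kif11* among them) and 1582 by limma-voom.

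With the replicate number as a block, 16 members were upregulated: *Bub1*, *Cdc25b*, *Ect2* and *Mad2l1* were lost and *Mki67* was gained. The deviations of same-numbered libraries had a correlation of 0.00711 across the genes tested. That value, taken over all genes, cannot tell whether same-numbered libraries shared a culture or batch. Members that changed sign with a library left out, none of which passed the threshold with all libraries, ranged from -0.075 to 0.51 (*Espl1*), -0.12 to 0.48 (*Incenp*), -0.046 to 0.32 (*Plk1*), -0.15 to 0.42 (*Nusap1*), -0.067 to 0.31 (*Tpx2*), -0.010 to 0.22 (*Ndc80*), -0.022 to 0.17 (*Kif4*), -0.32 to 0.42 (*Racgap1*), -0.0045 to 0.49 (*Ttk*) and -0.029 to 0.10 (*Pttg1*). Of the 24 genes picked from other lists for the largest changes, *Ccnd1*, *Pbk*, *Pds5b*, *Rrm1*, *Tk1*, *Troap* and *Tyms* kept the call under every alternative. The others of the 24 lost it with at least 1 library left out. The call was also lost without the trend for 8 of them (*Anapc2*, *Cdc23*, *Chek2*, *Lin52*, *Mastl*, *Rb1*, *Sgo2a*, *Wee1*), under the replicate block for *Cdc23*, *Chek2* and *Rb1*, with the same protein-coding total for *Anapc2*, *Cdc23* and *Chek2*, with quantile normalization or no filter for *Anapc2* and *Rb1*, and with either other pseudocount for *Rb1*. The causes were not tested.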
